A study of Mus musculus with 31 samples.

Results

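Cxcl5-/- and WT cells grown in 3D culture were compared across all genes in the rescue experiment. The comparison rests on 4 of the 31 RNA-sequencing libraries of the study, 2 from Cxcl5-/- cells and 2 from WT cells, taken by their genotype labels. The cells are Panc02, a murine pancreatic adenocarcinoma line, kept in plain culture media and grown as spheroids in Matrigel. Cxcl5 had been knocked out with lentiCRISPRv2, and no source used here says whether the knockout cells were a single clone. The same table holds 3 libraries of Cxcl5-/- cells with overexpressed stabilized Hif1a and 3 of Cxcl5-/- cells with overexpressed Myc. They entered only through the shared scaling, the filter on low counts and the estimate of the spread. The labels do not say whether the 2 libraries of a group came from separate cultures, and the methods speak of independent experiments only in general, so p-values may measure no more than technical spread between libraries. The total count was 42281281 and 43890492 in Cxcl5-/- and 41542533 and 41865292 in WT.

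CXCL5 is a secreted chemokine that acts through the receptor CXCR2 and is best known for drawing neutrophils. HIF1 is the transcription factor that raises glycolysis, iron and angiogenesis genes when oxygen is low, and its HIF1a subunit is regulated mainly by protein breakdown. MYC is a transcription factor tied to ribosome production, nucleotide synthesis and the cell cycle. Cells inside a spheroid have less oxygen and nutrient than cells in a monolayer. The design asks how gene expression in 3D culture differs when the tumor cells lack Cxcl5.

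The WT libraries of this experiment stood apart in one respect that touches low genes. Reads fell on olfactory, vomeronasal and taste receptor genes, which pancreatic tumor cells are not known to use. Of 1833 such genes, 361 and 294 had a count in Cxcl5-/-, and 1695 and 1694 had one in WT. Their reads made up 94.3 and 87.2 CPM (counts scaled to a common library size) in Cxcl5-/- and 742 and 754 CPM in WT, whereas the 3 WT libraries of the separate 2D and 3D culture experiment had 95.1 to 137 CPM in 3D. From these reads an expected background was computed for each gene by its exonic length, at 5.08 and 5.21 counts per kilobase in WT and 0.262 and 0.211 in Cxcl5-/-. Where this background is a large share of the WT count, the gene's fold change is a mixture of both. That share is given below for some of these genes, and a low gene printed without it may also be touched. What put these reads in the WT libraries was not tested.

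**Figure D1:**
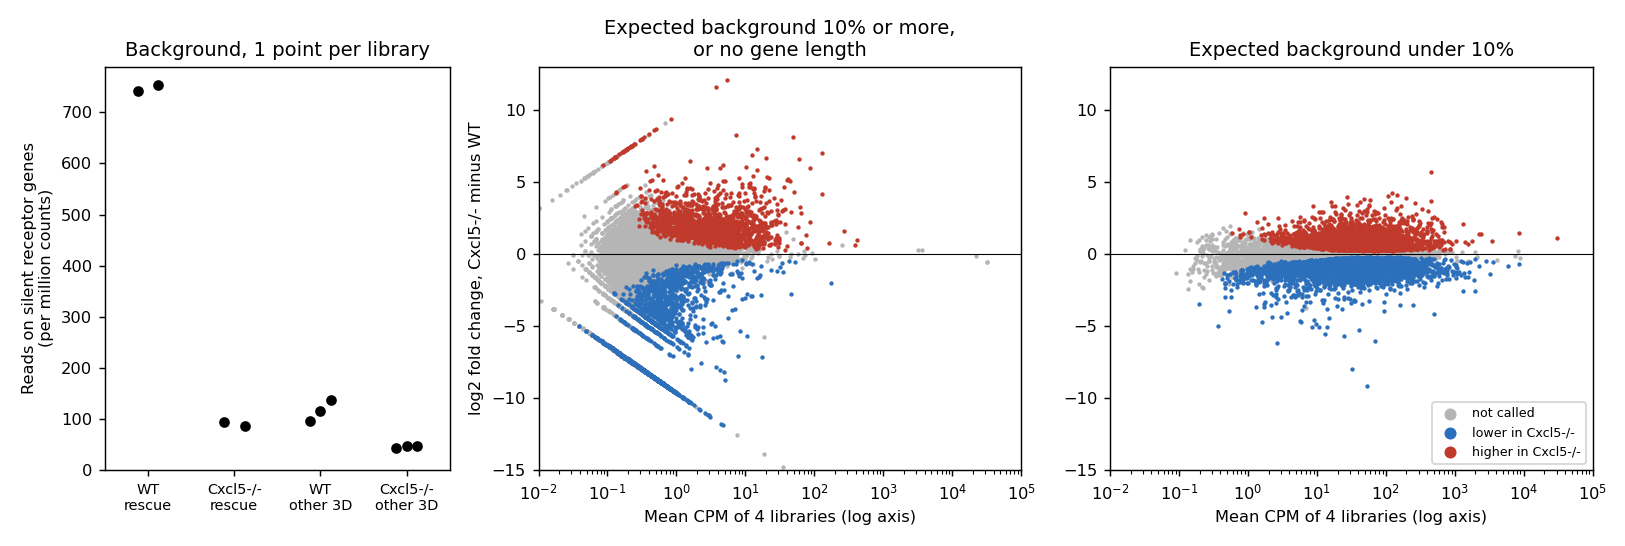
Left, reads on silent receptor genes in CPM in WT and Cxcl5-/- libraries of both 3D experiments, with 1 point per library. Middle and right, log2 fold change of each tested gene against its mean CPM (log axis). The right panel holds genes with expected background under 10% of the count in all 4 libraries. The middle panel holds the other genes, including those with no known length. The cloud of strongly negative values at low CPM sits in the middle panel.

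The targeted gene was still transcribed. Cxcl5 (ENSMUSG00000029371, chr5:90759360-90761624) had 1765 and 1979 counts in Cxcl5-/- and 2911 and 3115 in WT, or 36.6 and 40.2 CPM against 64.2 and 67.7 CPM. All levels of single genes here are CPM of the library after scaling. Cxcl5 thus fell by 0.78 on the log2 scale (SE 0.14, with an adjusted p of 0.00106, edgeR's quasi-likelihood test with Benjamini-Hochberg adjustment over all genes tested), and the groups did not overlap. A frameshift in the coding sequence need not remove the transcript, and the guide was not mapped to the gene here, so this level checks nothing about the protein.

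Both factors that were restored in the rescue lines had lower transcripts in Cxcl5-/-. Hif1a was at 144 and 134 CPM in Cxcl5-/- and 304 and 324 CPM in WT, a log2 fold change of -1.18 (SE 0.11, with an adjusted p of 1.04e-05). Myc was at 22.3 and 20.0 CPM against 49.3 and 46.1 CPM, a log2 fold change of -1.17 (SE 0.15, with an adjusted p of 9.04e-05). For both genes every WT library lay above every Cxcl5-/- library. Other members of their networks went both ways, in shares to be read beside 17.6% of all genes tested called higher and 24.3% called lower. Of 10 tested HIF subunits and hydroxylases, 5 were lower, Hif1a included, and 3 higher, with 3 lower without Cxcl5-/- library 2. Egln1 and Vhl, which mark HIF1a for breakdown, were lower (log2 fold changes -0.67 and -0.53). Arnt, the constitutive partner of HIF1a, rose by 0.80 and Epas1, which encodes HIF2a, by 1.82 on the log2 scale, although the expected background was up to 21.4% of an Epas1 count. Of 11 Myc, Max and Mxd members 4 were lower and 3 higher, or 3 and 4 of 10 with background under 10%. Among the repressors that compete with MYC for MAX, Mxd4 and Mnt rose by 2.71 and 0.82 while Mxd3 and Mxi1 were lower (-1.54 and -1.04). Mxd4 was at 162 and 180 CPM in Cxcl5-/- and 26.4 and 25.8 CPM in WT.

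Across the transcriptome, 28730 genes had enough counts to be tested. At an adjusted p under 0.05, 5053 genes (17.6%) were higher in Cxcl5-/- and 6995 (24.3%) were lower, so 41.9% were called in all. Among the 11649 genes with expected background under 10% in all 4 libraries, the fit to all genes called 3270 higher (28.1%) and 3617 lower (31.1%). Scaled and fitted on their own, which centres them, these genes gave 3685 higher (31.6%) and 3743 lower (32.1%), 63.8% in all. Of the 6859 lower calls with a known length 3242 (47.3%) had background of 10% or more, against 1683 of 4953 higher calls. With at least 10 counts in every library 51.8% of genes were called, and with the expected background subtracted 46.3%. In bulk RNA, fewer cells of a kind and less RNA per cell cannot be told apart. By more than 1 on the log2 scale, 2571 of the 28730 genes rose and 4756 fell, and by more than 3, 298 rose and 2998 fell. Among the 11649 genes with little background fitted on their own, 1119 rose and 1376 fell by more than 1, and 30 rose and 56 fell by more than 3. By class, 3863 of 17541 protein-coding genes were higher and 5156 lower, and 208 of 3372 pseudogenes were higher and 715 lower. Groups failed to overlap for far more genes than were called, 9133 (31.8%) with Cxcl5-/- higher and 14105 (49.1%) with Cxcl5-/- lower.

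Genes with the largest shifts in abundance give the scale of the difference. Malat1, a nuclear noncoding RNA, had 41170 and 41590 CPM in Cxcl5-/- and 19980 and 18170 CPM in WT. Fn1, which encodes the matrix protein fibronectin, had 12330 CPM in both Cxcl5-/- libraries and 4464 and 4581 CPM in WT. Lrp1, an endocytic receptor, had 2149 and 2138 CPM against 499 and 500 CPM. These genes rose by 1.12, 1.45 and 2.10 on the log2 scale. In the other direction, Vim, the intermediate filament protein vimentin, was at 569 and 544 CPM in Cxcl5-/- and 3327 and 3352 CPM in WT (log2 fold change -2.59, SE 0.10, with an adjusted p of 4.59e-08). Hspa5, the main chaperone of the endoplasmic reticulum, was at 866 and 825 CPM against 3079 and 2928 CPM (log2 fold change -1.83). The elongation factor gene Eef1a1 and the mitochondrially encoded mt-Co1 were lower, at log2 fold changes of -0.85 and -0.71.

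**Figure D2:**
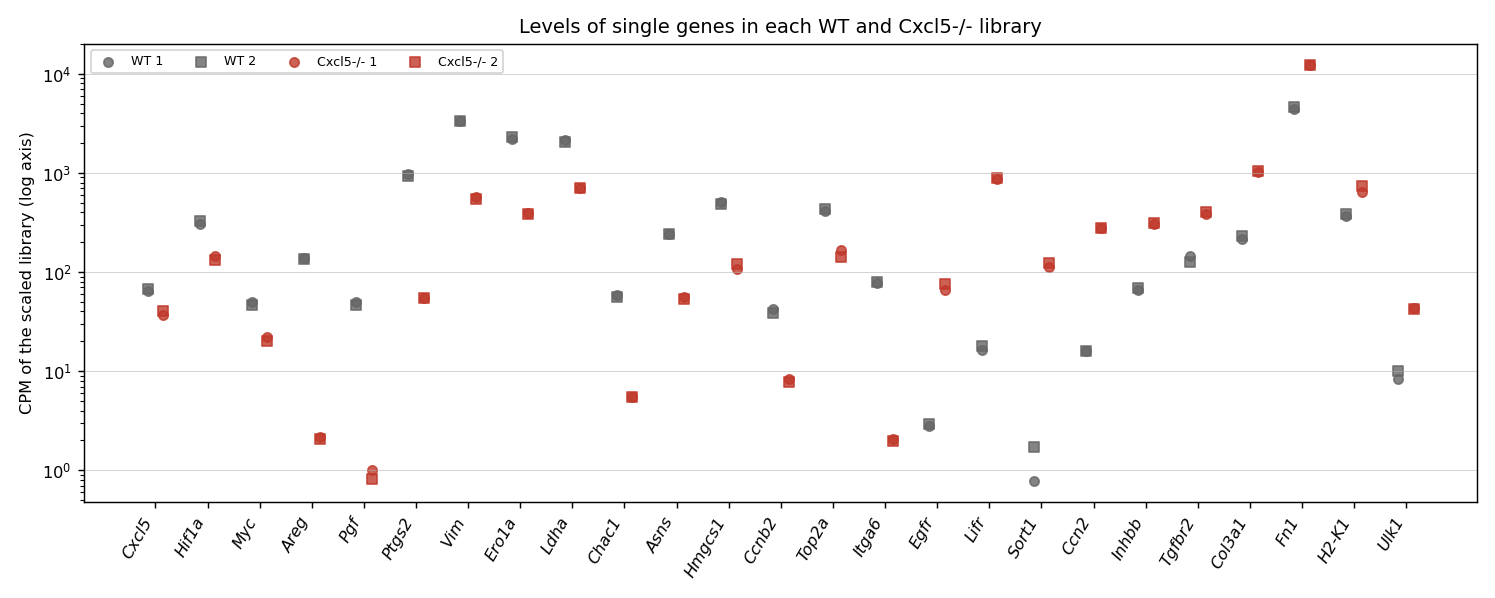
Levels of single genes in CPM of the scaled library (log axis), with 1 point for each of the 2 WT and 2 Cxcl5-/- libraries. The 2 libraries of a group lie close together for most genes, and the gap between genotypes is wide for Areg, Lifr and Vim.

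Hypoxia-response targets were lower as a group. Of 49 tested members of the list, 42 fell, 2 rose and 5 were not called, with a median log2 fold change of -1.33 beside -0.30 over all genes tested. With background under 10% the figures were 38 lower and 2 higher of 42, and a median of -1.13 beside -0.01. Summed over the list, the level was 5509 and 5352 CPM in Cxcl5-/- and 13616 and 13534 CPM in WT. Ero1a, an oxidase of the endoplasmic reticulum, had 394 and 383 CPM in Cxcl5-/- and 2206 and 2330 CPM in WT (log2 fold change -2.55, SE 0.15, with an adjusted p of 3.4e-07). Pgf, placental growth factor, had 1.02 and 0.812 CPM against 50.2 and 46.6 CPM (log2 fold change -5.72, SE 0.31, with an adjusted p of 2.24e-07). Both genes were separated between the groups without overlap. The members that rose were Ppp1r3b, a glycogen-targeting phosphatase subunit, by 1.31 and Narf by 0.62.

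Glycolysis went the same way, with 19 of 24 tested members lower and 2 higher (median -1.30). The summed level was 7408 and 7645 CPM in Cxcl5-/- and 19691 and 18895 CPM in WT. Slc2a1, the glucose transporter GLUT1, stood at 62.9 and 54.8 CPM in Cxcl5-/- and 268 and 281 CPM in WT (log2 fold change -2.22). Hk2 (hexokinase) and Pfkp (phosphofructokinase) fell (log2 fold changes -2.08 and -2.05), and Aldoa (aldolase), Pgk1, Pkm and Ldha (lactate dehydrogenase) were lower as well (-1.26, -1.57, -1.42 and -1.58). Pkm alone went from 4843 and 4608 CPM in WT to 1730 and 1802 CPM in Cxcl5-/-. The value for Gapdh, -2.46, is uncertain because many pseudogene copies share its reads. Aldoc, another aldolase, rose by 3.29 from 0.684 and 2.46 CPM in WT to 14.9 and 15.8 CPM, with expected background up to 53.5% of a count. Eno2 rose by 0.76.

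Promoter sequence is shown where a list fell together. ACGTG, the core of the hypoxia response element, was sought on both strands in the RefSeq promoter windows (GRCm38.p6) from 250 bases before to 50 bases after each gene start. It was present for 21 of the 32 lower hypoxia targets that had a window (65.6%) and for 13 of 19 lower glycolysis genes (68.4%), against 21.8% of 27025 genes. Among all tested members with a window, lower or not, it was present for 24 of 36 (66.7%) and 16 of 23 (69.6%). The window of Ero1a, the lower hypoxia target with the largest difference in CPM among those with a match, lies at chr14:45318523-45318822 on the minus strand, and the capitals mark the match, which reads CACGT on the strand shown.
Ero1a: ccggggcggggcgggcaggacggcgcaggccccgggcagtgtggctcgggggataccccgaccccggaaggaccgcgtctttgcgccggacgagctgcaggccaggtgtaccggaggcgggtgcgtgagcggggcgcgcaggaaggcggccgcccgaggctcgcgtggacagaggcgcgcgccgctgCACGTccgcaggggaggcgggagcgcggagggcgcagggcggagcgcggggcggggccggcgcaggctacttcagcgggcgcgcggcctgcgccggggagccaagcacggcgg
A match is a description of these letters only.

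The ATF4 response, by which cells raise amino acid synthesis and transport under nutrient or endoplasmic reticulum stress, was also lower. Of its 32 members 29 fell, 1 rose and 2 were not called (median -1.34). Atf4 was at 122 and 119 CPM in Cxcl5-/- and 448 and 430 CPM in WT, a log2 fold change of -1.86. Chac1, which degrades glutathione, had 5.50 and 5.54 CPM against 59.3 and 55.7 CPM (log2 fold change -3.38, SE 0.14, with an adjusted p of 6.69e-08). Trib3, a pseudokinase that feeds back on ATF4, had 6.83 and 6.54 CPM against 61.6 and 67.0 CPM (log2 fold change -3.27). Atf3 and Cth fell (log2 fold changes -3.85 and -2.60). The single member that rose was Vldlr, a lipoprotein receptor, by 1.24. Of 28 tested enzymes of serine synthesis and folate metabolism, 16 were lower and 2 higher. Psat1 in serine synthesis went from 543 and 551 CPM in WT to 150 and 133 CPM, and Mthfd2 in the mitochondrial folate pathway fell by 1.88. Of 27 chaperone and unfolded protein response genes 20 were lower and 2 higher, with a smaller median of -0.50, and without Cxcl5-/- library 2 the lower calls were 13.

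The composite site TGATGNAA, bound by ATF4 with C/EBP factors, was found in 9 of 25 lower ATF4 genes with a window (36.0%), against 4.51% of 27025 genes. Among all tested ATF4 genes with a window, lower or not, 11 of 27 held it (40.7%). Asns, asparagine synthetase, had 55.8 and 53.2 CPM in Cxcl5-/- and 245 and 244 CPM in WT and fell by 2.16. Its window lies at chr6:7693160-7693459 on the minus strand, with the match in capitals.
Asns: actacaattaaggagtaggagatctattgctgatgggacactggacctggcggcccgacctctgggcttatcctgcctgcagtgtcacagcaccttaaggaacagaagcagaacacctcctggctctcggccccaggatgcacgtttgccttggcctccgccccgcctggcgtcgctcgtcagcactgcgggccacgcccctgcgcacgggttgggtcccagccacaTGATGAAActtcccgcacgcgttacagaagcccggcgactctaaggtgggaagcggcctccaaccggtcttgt
This is the lower ATF4 gene with the largest difference in CPM among those with a match.

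Cholesterol synthesis and uptake fell almost as a whole. Of 25 members 24 were lower and none was higher (median -1.72, and -1.69 with background under 10%). The list summed to 1575 and 1649 CPM in Cxcl5-/- and 4913 and 4813 CPM in WT. Hmgcs1, which makes HMG-CoA, was at 108 and 119 CPM against 509 and 490 CPM (log2 fold change -2.13, SE 0.15, with an adjusted p of 1.5e-06). Pmvk and Idi1, later in the mevalonate pathway, fell (log2 fold changes -2.53 and -2.21). The exception was Srebf2, the factor that drives these genes, at 114 CPM in both Cxcl5-/- libraries and 131 CPM in both WT libraries (log2 fold change -0.20, adjusted p = 0.0849). Fatty acid genes were mixed, with 10 of 19 lower and 4 higher, the latter 2 when any of the 4 libraries was left out. Acss2 and Elovl6 fell (log2 fold changes -2.40 and -2.21), while Fasn, fatty acid synthase, rose by 0.33.

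One of the 16 lower cholesterol genes with a window held TCACNCCAC, the sterol response element (6.25%, against 1.44% of 27025 genes). That gene was Hmgcs1, whose window at chr13:119690101-119690400 on the plus strand is shown with the match in capitals.
Hmgcs1: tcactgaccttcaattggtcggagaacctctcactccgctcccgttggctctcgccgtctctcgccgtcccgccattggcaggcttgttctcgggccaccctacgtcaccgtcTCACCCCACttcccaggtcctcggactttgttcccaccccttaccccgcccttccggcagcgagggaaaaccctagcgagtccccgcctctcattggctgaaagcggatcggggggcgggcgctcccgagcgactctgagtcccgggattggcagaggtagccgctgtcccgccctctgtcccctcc
The other 15 windows do not hold these letters.

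Proliferation genes were lower without exception among the mitosis and spindle genes. All 38 tested members fell, by 0.51 to 2.33 (median -1.59), and the list summed to 1309 and 1153 CPM in Cxcl5-/- against 3469 and 3464 CPM in WT. Ccnb2 (cyclin B2) had 8.34 and 7.71 CPM in Cxcl5-/- and 42.2 and 38.8 CPM in WT, a log2 fold change of -2.33. Ube2c, which works with the anaphase-promoting complex, had 11.9 and 15.3 CPM against 67.5 and 63.4 CPM (log2 fold change -2.27). Top2a, topoisomerase IIa, went from 416 and 433 CPM in WT to 167 and 143 CPM (log2 fold change -1.46). Of 43 DNA replication genes 37 were lower and 1, Gins3, was higher, a call that was lost without any one of the 4 libraries compared and with DESeq2. Pole2 and Gmnn fell (log2 fold changes -2.12 and -1.88). Among G1 cyclins and CDK inhibitors, 9 of 20 were lower (45.0%) and 4 higher (20.0%), beside 24.3% and 17.6% of all genes tested. With background under 10%, 9 of 18 were lower and 4 higher, beside 32.1% and 31.6% of all such genes. Ccnd1 fell by 1.63 and Ccnd2 rose by 1.09, and the CDK inhibitor Cdkn1a (p21) fell by 2.04.

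CCAAT, the NF-Y box, and TTTGAA, the core of the cell cycle homology region, were each found in 23 of 30 mitosis genes with a window (76.7%). The shares over 27025 genes were 41.1% and 20.2%. The window of Top2a at chr11:99024140-99024439 on the minus strand is shown with both motifs in capitals on either strand.
Top2a: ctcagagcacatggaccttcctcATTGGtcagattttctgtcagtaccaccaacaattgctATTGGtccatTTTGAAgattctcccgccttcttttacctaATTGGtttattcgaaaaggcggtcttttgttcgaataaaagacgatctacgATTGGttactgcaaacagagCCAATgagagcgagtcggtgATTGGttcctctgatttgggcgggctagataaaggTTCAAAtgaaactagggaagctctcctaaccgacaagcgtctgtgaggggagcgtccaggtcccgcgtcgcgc
It holds 8 separate stretches of either motif.

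Clustered histone genes, whose transcripts are made in S phase, were lower for 60 of 67 tested members and higher for none (median -1.68). They summed to 2470 and 2646 CPM in Cxcl5-/- and 6833 and 7401 CPM in WT. H4c4 had 111 and 118 CPM against 407 and 434 CPM. Near-identical copies share reads in this family, and H2ac18 had 28.6 and 183 CPM in the 2 WT libraries, so single histone genes are uncertain.

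Ribosomal protein genes fell together. All but 1 of the 76 cytosolic ones were lower (75, median -1.18), and the exception, Rpl17, had 45.9 and 25.4 CPM in Cxcl5-/- and 67.1 and 62.4 CPM in WT (log2 fold change -0.86, adjusted p = 0.226). Together they made up 18717 and 19883 CPM in Cxcl5-/- and 43881 and 44125 CPM in WT. Rplp0 went from 1599 and 1593 CPM in WT to 648 and 714 CPM. Ribosome biogenesis genes were lower for 31 of 41 and higher for 1 (0 without any one of the 4 libraries compared and with DESeq2), with Npm1 (nucleophosmin) at -1.52. Mitochondrial ribosomal proteins were lower for 62 of 78 and higher for none (median -0.66), with 41 lower without Cxcl5-/- library 1. Proteasome subunits were lower for 24 of 39. Many of these short genes have pseudogenes that share reads.

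Mitochondrial energy genes changed less. Nuclear-encoded respiratory chain subunits were lower for 39 of 70 and higher for none, with a median of -0.52, and TCA cycle enzymes for 14 of 24 with 3 higher. The TCA cycle median was -0.30, the same as over all genes tested, and -0.26 beside -0.01 among genes with background under 10%. Both counts leaned on single libraries. Without Cxcl5-/- library 1, 21 respiratory chain subunits and 8 TCA cycle enzymes were lower, and the latter were 7 without Cxcl5-/- library 2 and 8 without WT library 1. Pcx, pyruvate carboxylase, was among those that rose, by 1.54. The 13 mitochondrially encoded mRNAs divided: 5 were higher, led by mt-Nd4 at 516 CPM in both Cxcl5-/- libraries and 204 and 190 CPM in WT (log2 fold change 1.39), and mt-Co1 was lower. The 13 summed to 13240 and 12846 CPM in Cxcl5-/- and 17296 and 16121 CPM in WT. Lower calls were 3 without Hif1a OE library 2 or 3, with the replicate block and with DESeq2, and 5 with only the 4 libraries. The complex I genes mt-Nd2, mt-Nd5 and mt-Nd6 were among the 5 that were higher.

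**Figure D3:**
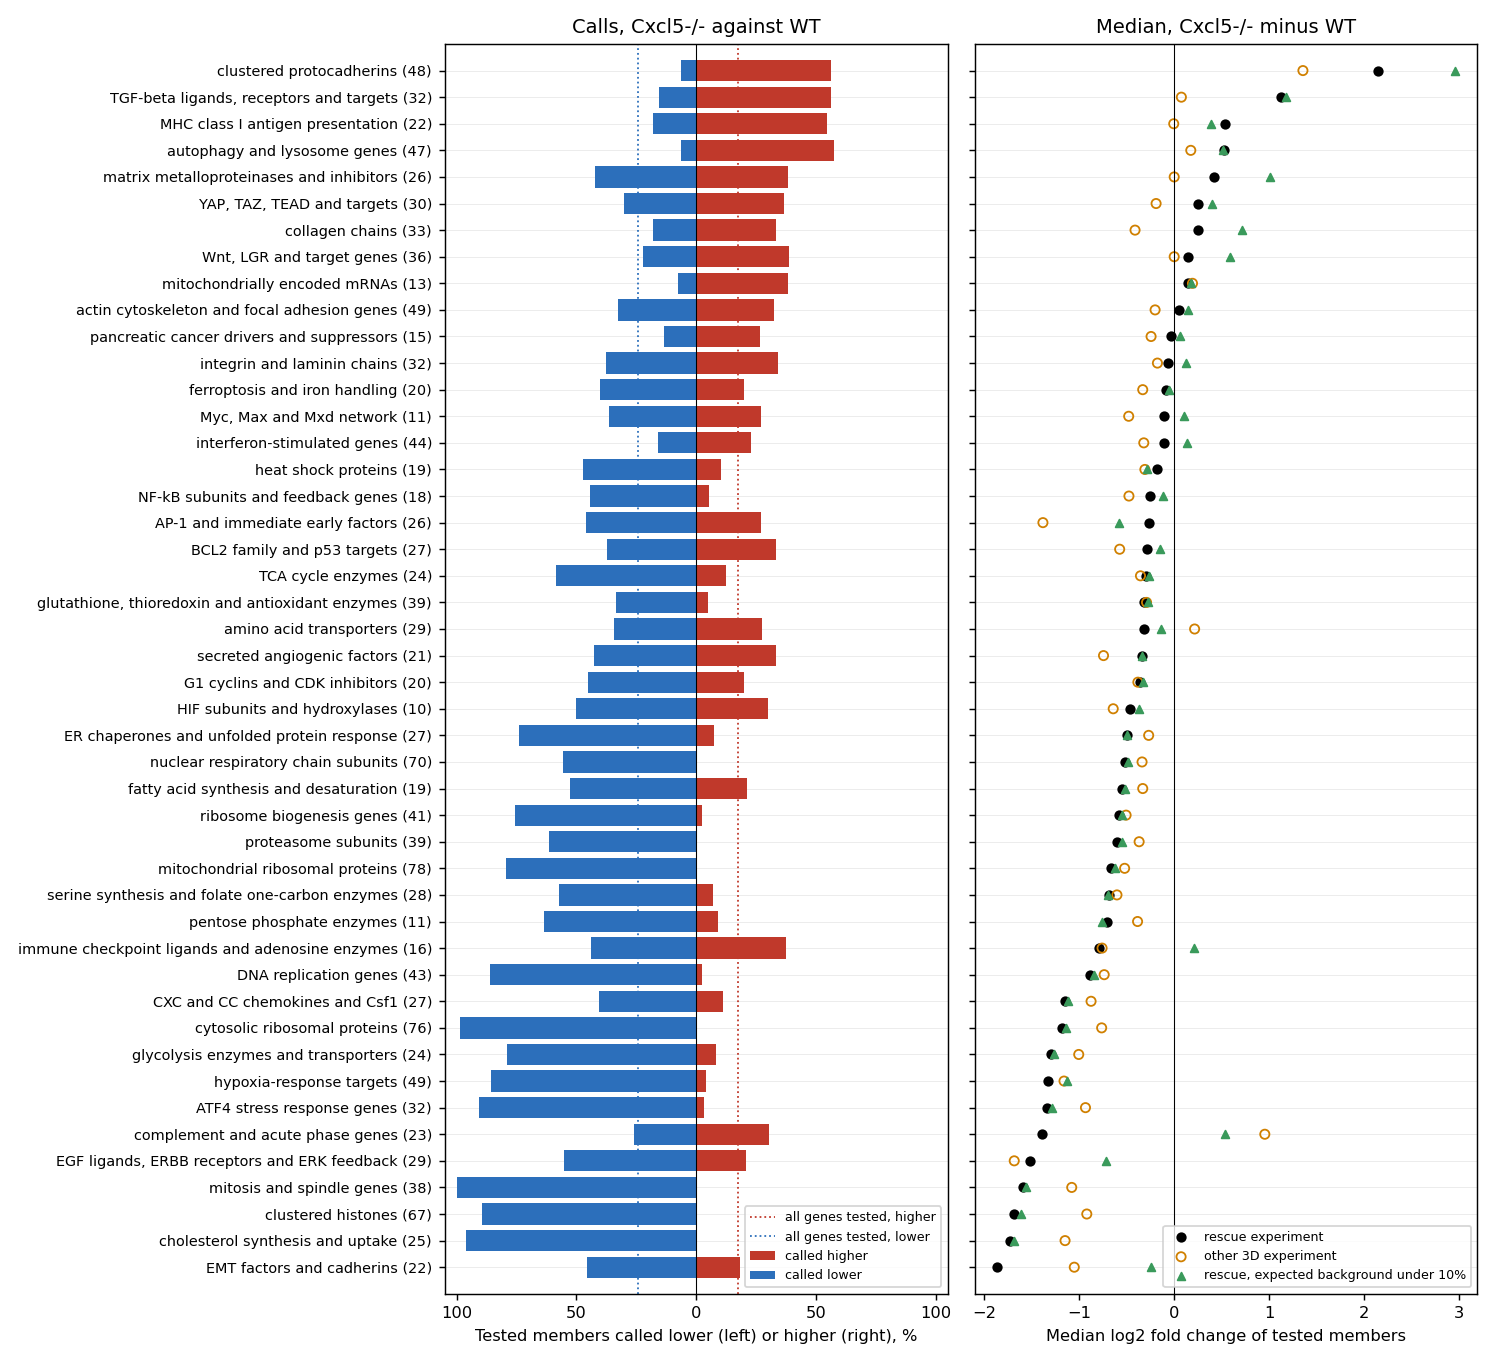
Left, share of the tested members of each gene list that were called higher (right) or lower (left) in Cxcl5-/- than in WT, with the number tested in brackets and dotted lines for all genes tested. Right, median log2 fold change of the tested members in the rescue experiment (filled circles), in its members with expected background under 10% (triangles) and in the other 3D experiment (open circles). Mitosis, ribosomal protein and cholesterol lists are lower almost throughout, and the TGF-beta and lysosome lists lie to the right.

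Growth factor signalling differed at the level of ligand and receptor. Areg (amphiregulin), a ligand of the EGF receptor, was at 2.18 and 2.05 CPM in Cxcl5-/- and 140 and 134 CPM in WT (log2 fold change -6.02, SE 0.19, with an adjusted p of 1.31e-08). The ligand Hbegf had 11.2 and 9.97 CPM against 102 and 103 CPM, and Ereg 13.8 and 13.2 CPM against 55.4 and 60.7 CPM (log2 fold changes -3.27 and -2.10). Egfr, their receptor, went the other way, from 2.80 and 2.91 CPM in WT to 65.6 and 75.1 CPM (log2 fold change 4.62), with expected background up to 45.3% of a WT count. Several feedback and target genes of ERK were among those lower, with log2 fold changes of -3.12 for Dusp5, -3.63 for Etv4 and -3.56 for Ier3. Over the list 16 of 29 were lower and 6 higher, beside 24.3% and 17.6% of all genes tested. With background under 10%, 11 of 20 were lower and 5 higher, beside 32.1% and 31.6% of all such genes. Immediate early factors were mixed (12 lower and 7 higher of 26, or 11 and 7 of 21 with background under 10%). Maff and Fosl1 fell (log2 fold changes -3.02 and -2.23), and Egr1 rose from 11.8 and 8.54 CPM to 63.5 and 70.0 CPM.

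Chemokine and cytokine genes were more often lower than higher. Of 27 tested chemokine and cytokine genes 11 were lower and 3 higher, or 7 and 1 with background under 10%. Ccl2, which attracts monocytes, had 18.1 and 17.4 CPM in Cxcl5-/- and 67.3 and 69.9 CPM in WT (log2 fold change -1.95, SE 0.20, with an adjusted p of 2.09e-05). The neighbouring Ccl7 fell by 1.79, and Csf1 and Lif were lower at -1.19 and -2.37. Ptgs2 (cyclooxygenase 2) dropped from 976 and 933 CPM in WT to 54.3 and 54.2 CPM, a log2 fold change of -4.14. Nfkbia, the NF-kB inhibitor that NF-kB itself induces, fell by 1.48. Complement and acute phase genes, also secreted, went both ways, but only 8 had background under 10%, of which 5 were higher and 2 lower. Their sum was higher at 2518 and 2464 CPM in Cxcl5-/- against 1508 and 1410 CPM in WT. Of all 23 tested, 7 were higher and 6 lower, beside 17.6% and 24.3% of all genes tested. The 7 became 4 without Cxcl5-/- library 2 or either WT library. Interferon-stimulated genes were higher for 10 of 44 (22.7%, beside 17.6% of all genes) and lower for 7. That balance turned with DESeq2 (6 higher and 9 lower) and its size factors (5 and 9), and 5 were higher without either Cxcl5-/- library or without WT library 1. Without Cxcl5-/- library 2, 4 were lower. With background under 10%, 11 of 37 interferon-stimulated genes were higher and 6 lower, beside 31.6% and 32.1% of all such genes. Ifit3 rose by 1.79.

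TGF-beta ligands, receptors and targets were more often higher, 18 of 32 against 5 lower (median 1.12). Tgfbr2 had 389 and 401 CPM in Cxcl5-/- and 146 and 127 CPM in WT (log2 fold change 1.53), and Inhbb, an activin subunit, 304 and 309 CPM against 66.0 and 69.5 CPM (log2 fold change 2.18). Ltbp3, which holds latent TGF-beta in the matrix, rose by 2.32 and Thbs1, which can activate it, by 1.42. Members that fell included Inhba (-1.64), Smad7 (-1.26), Ltbp1 and Tgfbi. Targets of the pathway did not share a direction: Smad7 fell while Ccn2, counted in the YAP list, rose from 16.1 CPM in both WT libraries to 278 and 277 CPM (log2 fold change 4.11).

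Matrix and adhesion genes changed in both directions. Collagen chains were higher for 11 of 33 and lower for 6, or 3 lower without Cxcl5-/- library 1, beside 17.6% higher and 24.3% lower over all genes. Col3a1 had 1029 and 1056 CPM in Cxcl5-/- and 216 and 230 CPM in WT (log2 fold change 2.22), and Col12a1 rose by 2.59. Col7a1 was lower (log2 fold change -3.05). Among integrin and laminin chains 11 of 32 were higher and 12 lower. Itgb8, which activates latent TGF-beta, had 258 and 250 CPM in Cxcl5-/- against 27.6 and 33.6 CPM in WT. Itga6, a laminin receptor subunit, had 2.08 and 1.99 CPM against 77.0 and 80.0 CPM (log2 fold change -5.27, SE 0.13, with an adjusted p of 2.02e-09). Matrix proteases were also divided (10 higher and 11 lower of 26, or 7 lower without Cxcl5-/- library 2 or WT library 2), with Mmp2 up by 1.69 and a log2 fold change of -3.13 for Plaur, the urokinase receptor.

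Markers of epithelial and mesenchymal state did not move as a unit. The epithelial keratins Krt8 and Krt18 fell (log2 fold changes -1.44 and -2.02). Krt18 was at 84.9 and 93.0 CPM in Cxcl5-/- and 349 and 372 CPM in WT. Vim and Snai2, both mesenchymal genes, fell as well (log2 fold changes -2.59 and -1.83). Fn1, Zeb1 and Zeb2 rose by 1.45, 0.77 and 1.06. Over the list of EMT factors and cadherins 10 of 22 were lower and 4 higher (5 lower without Cxcl5-/- library 1 and 6 without Cxcl5-/- library 2 or WT library 2), but only 8 had background under 10%, and of these 4 were lower and 3 higher.

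MHC class I and lysosome genes were higher. Of 22 antigen presentation genes 12 rose and 4 fell (median 0.54), with 1 lower without Cxcl5-/- library 1 and 2 without Cxcl5-/- library 2 or WT library 2. H2-K1 had 643 and 743 CPM in Cxcl5-/- and 369 and 383 CPM in WT, and B2m, the common light chain, 2264 and 2278 CPM against 1242 and 1252 CPM (log2 fold changes 0.88 and 0.87). Nlrc5, the activator of these genes, rose by 2.00, from 31.1 and 32.8 CPM to 124 and 131 CPM. The H2 genes resemble each other closely, so reads may be split among them. The immunoproteasome subunit gene Psmb8 fell by 2.94. Of 47 autophagy and lysosome genes 27 rose and 3 fell (median 0.52). Ulk1, the kinase that starts autophagy, had 43.1 and 42.9 CPM against 8.34 and 10.1 CPM, Grn rose by 1.35 and Psap by 0.84. The autophagy receptor gene Sqstm1 fell by 0.73.

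The genes with the largest folds included some that were all but absent in 1 genotype. Lifr, the LIF receptor, had 870 and 884 CPM in Cxcl5-/- and 16.4 and 17.8 CPM in WT (log2 fold change 5.68, SE 0.13, with an adjusted p of 1.89e-09). Olfml2b had 172 and 169 CPM against 2.34 and 3.00 CPM, and Sort1 (sortilin) 112 and 123 CPM against 0.772 and 1.72 CPM. In WT the expected background came to 14.8% of an Olfml2b count and to 110% of a Sort1 count, and the folds are a mixture of signal and background. Pde2a, a phosphodiesterase, had 245 and 267 CPM against 0.353 and 3.54 CPM. Its expected background is not given here. In 3 genes both WT libraries had 3 counts or fewer and both Cxcl5-/- libraries 100 or more. Ctrb1 had 423 and 637 counts in Cxcl5-/- and 0 in both WT libraries, at least 133-fold higher against 3 counts per library. Olfml1 had 379 and 363 counts against 0 (at least 111-fold higher), and the third was the predicted gene Gm47880.

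At the other end, 39 genes had 3 counts or fewer in both Cxcl5-/- libraries and 100 or more in both WT libraries, and 37 of them were called. Krt19, a ductal keratin, had 3 and 0 counts in Cxcl5-/- and 401 and 501 in WT, at least 142-fold lower against 3 counts per library. Cldn1, a tight junction protein, had 2 and 0 counts against 377 and 543 (at least 134-fold lower). Sncg and Pnma5 had 0 counts in both Cxcl5-/- libraries and were at least 119-fold and 117-fold lower. Hgf had 0 against 149 and 118 counts (at least 41.2-fold lower). Background is a limit here, since Vmn2r120 and Vmn2r113, silent receptor genes themselves, were also in this set. Rhox5, a homeobox gene on chromosome X, had 0.0622 and 0.426 CPM in Cxcl5-/- and 63.1 and 65.4 CPM in WT, with expected background at most 6.59% of a count.

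Markers of cell types other than tumor cells were checked, since they touch the matrix genes above. Epithelial and ductal markers summed to 2075 and 2043 CPM in Cxcl5-/- and 3065 and 3196 CPM in WT. Of 14 tested 6 were lower and 2 higher, with 3 lower without WT library 1, and 8 and 11 members were at 0 in the Cxcl5-/- libraries against 3 in each WT library. Silent receptor genes were also at 0 more often in Cxcl5-/-, and only 6 of the epithelial markers had background under 10%, of which 3 were lower and 2 higher. Krt8, Krt18, Sox9 and Pdx1 were expressed in all 4 libraries, but Epcam had 0 counts in Cxcl5-/- and 25 and 0 in WT, and Cdh1 at most 28 counts in any library. Fibroblast and stellate cell markers summed to 1526 and 1567 CPM in Cxcl5-/- and 303 and 320 CPM in WT, with 7 of 12 higher and none lower. Col3a1, Pdgfra, Pdgfrb, Dcn and Lum carried this sum, while Fap had 0 counts in both Cxcl5-/- libraries and Col1a2 only 21 and 95. Macrophage and leukocyte markers summed to 45.6 and 48.9 CPM against 52.1 and 51.3 CPM, with C1qa and Tyrobp at 0 in Cxcl5-/-, and 4 were higher and 8 lower of 18. Those lower calls fell to 1 without either Cxcl5-/- library, 2 without either WT library and 3 with the replicate block, and the higher calls to 2 without any of the 4. Only 3 had background under 10%, with 1 higher and 1 lower, and with background subtracted the direction turned, to 5 higher and 1 lower of 10. Endothelial markers were at 7.35 and 9.95 CPM against 15.6 and 16.2 CPM. Acinar markers were at 9.34 and 13.7 CPM against 3.29 and 2.91 CPM, nearly all of it Ctrb1 in Cxcl5-/-. The part of other cells in the matrix results was not tested.

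The separate 3D experiment, with 3 WT and 3 Cxcl5-/- libraries, shares no library with this comparison and was used to see where the genotype difference repeats. In a joint model of 30441 genes, 4086 (13.4%) were higher and 6109 (20.1%) lower in its Cxcl5-/- libraries. Of the 5049 genes higher in the rescue experiment and tested in both, 2861 were also higher there (56.7% of the first list and 70.4% of the second). Of 6981 lower genes, 3687 were also lower there (52.8% and 60.9%). With background under 10% in the rescue libraries, 2906 of 3617 lower genes were also lower there (80.3% and 62.7%), and 1795 of 3270 higher genes were also higher (54.9% and 82.2%). Opposite calls were few, 228 and 86. Across the 11649 genes with little background the correlation of the log2 fold changes was 0.75, over genes, which are not independent replicates.

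**Figure D4:**
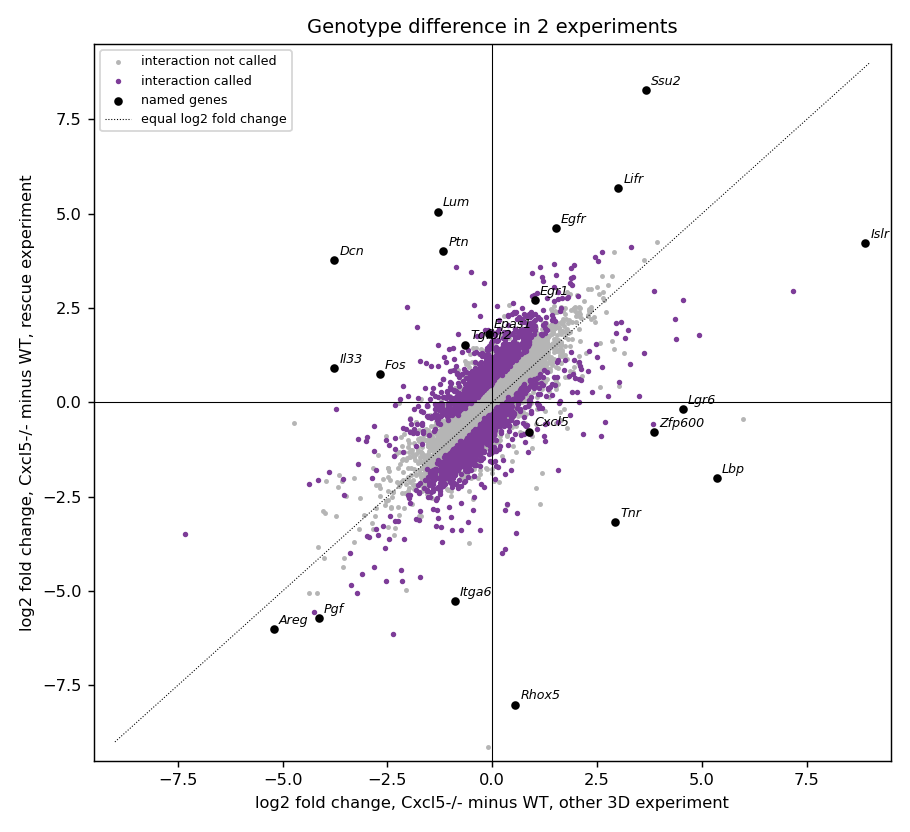
Log2 fold change between Cxcl5-/- and WT in the rescue experiment against that in the other 3D experiment, with 1 point per gene, the dotted line marking equal values and purple points the genes called in the test of the difference. Most genes lie along the line, with Dcn, Lum, Ptn, Lbp and Tnr far from it.

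The difference between the experiments was itself tested as an interaction. The rescue effect was above the other for 1327 genes (4.36%) and below it for 1408 (4.63%), 8.98% of genes in all, so 48.5% of these calls were above, or 33.0% with library totals in place of scaled totals and 66.9% with no filter on low counts. Leaving out 1 library gave 45.6% to 68.1%. With background under 10% in both experiments, 1477 of 11610 genes were above and 1421 below, a larger share than over all genes. Cxcl5 was among the genes called for this difference. Rescue fold changes here come from the fit to the rescue table, and the difference comes from the joint fit with its own scaling, so it is not their plain subtraction. The log2 fold change of Cxcl5 was -0.78 here and 0.88 (adjusted p = 4.58e-05, edgeR's quasi-likelihood test) in the other experiment. There Cxcl5-/- libraries had 4153, 2359 and 2977 counts and WT libraries 1469, 1050 and 1520. The difference was -1.80 (adjusted p = 1.88e-05, same test). Hif1a and Myc were lower in both, at -1.24 and -1.79 in the other experiment, and the differences were not called (adjusted p = 0.891 and 0.118). Among lists, TGF-beta genes were called above for 13 of 32 members and below for 3, and had a median of 0.08 in the other experiment. Tgfbr2 was lower there (log2 fold change -0.65). Of the 22 MHC class I antigen presentation genes, 5 were higher and 7 lower there, beside 13.4% and 20.1% of all genes. Their median there was -0.005, and 6 were called above and 0 below. Mitosis genes were called below for 24 of 38 and cholesterol genes for 17 of 25, although both lists fell in both experiments. Immediate early factors had 13 of 26 members above and 3 below, and Fos, at 0.74 here (adjusted p = 0.0775), fell by 2.69 there.

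By chromosome, 1 stood apart. Among genes with background under 10%, the 611 on chromosome 8 had a median log2 fold change of 0.24, against -0.19 to 0.05 on every other chromosome and -0.04 over all of them in the fit to all genes tested. On chromosome 8, 41.7% were higher and 21.6% lower, against 28.1% and 31.1% over all of these genes. Relative to the median of all these genes in each library, the median log2 ratio to the WT mean was 0.26 and 0.29 in the 2 Cxcl5-/- libraries and between 0.28 and 0.33 in the 6 libraries of the rescue lines, which are also Cxcl5-/-. In the other 3D experiment the median of chromosome 8 was -0.20, equal to that over all these genes. There chromosome 3 was lowest, at -0.54, beside -0.15 in the rescue experiment. Whether copy number has a part in this was not tested.

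**Figure D5:**
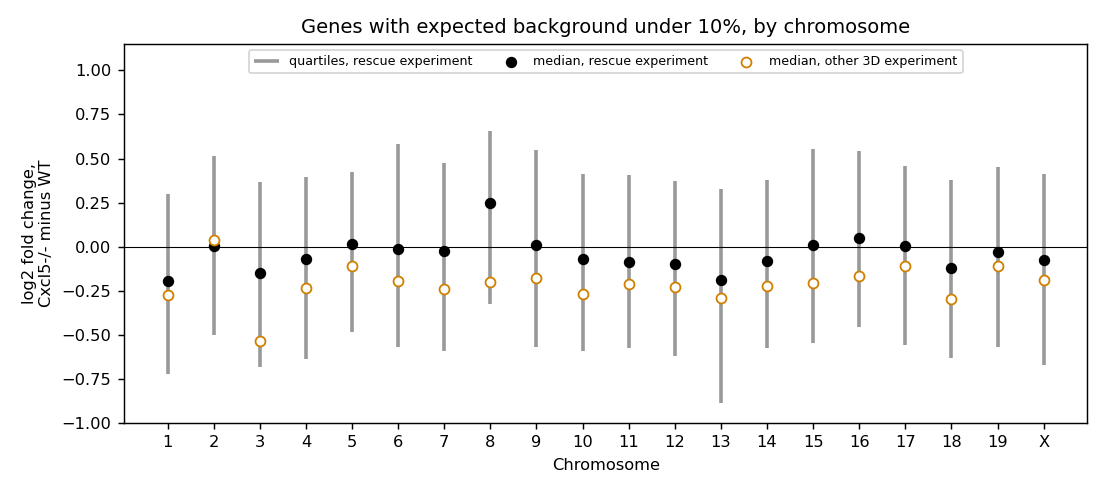
Median log2 fold change (black, with quartiles) between Cxcl5-/- and WT by chromosome in the rescue experiment and median in the other 3D experiment, for genes with expected background under 10% of the count. Chromosome 8 lies above the others in the rescue experiment at 0.24, and chromosome 3 below the others in the other 3D experiment at -0.54.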

How the data were processed

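RNA of WT and Cxcl5-/- Panc02 cells in 3D culture was sequenced from stranded total RNA libraries as read pairs. The authors aligned reads to GRCm38 (mm10 per the submitters' processing notes) with HISAT2, obtained counts with StringTie and deposited whole-number read counts per gene that were not normalized. Versions and the annotation release are not given in the sources used here. Of 56941 genes, 52000 (91.3%) matched GENCODE M21, which gave coordinates, lengths and classes. The labels' cell line name runs on from sample to sample in this table, and the paper's Panc02 was followed. Members and gene lists were chosen with earlier results of these data known.

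Counts were scaled with TMM and tested in R 4.3.3 with edgeR 4.0.16 (quasi-likelihood F-test), over all 10 libraries of the table, with edgeR's filter on low counts and Benjamini-Hochberg adjustment (adjusted p under 0.05). The SE was taken as the log2 fold change, without sign, over the root of the F statistic. The difference between experiments came from a joint fit of both tables, which hold 22 libraries. Expected background is the read rate per exonic base on 1833 receptor genes, leaving out the densest 5%, times exonic length. Alternatives were DESeq2 1.42.0, other scalings and filters, only the 4 libraries compared, the replicate number as a block, each library left out and, chosen after seeing the data, background subtracted and, for the difference between experiments, only genes with background under 10%. The tests were tested on simulated data. No column of values was left unused (0).

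Named genes were Cxcl5, Hif1a and Myc, the 15 largest log2 fold changes each way that had no overlap and averaged 100 counts or more, the 10 largest CPM differences each way, up to 4 called members each way and the most abundant member per list with a mean count of at least 50, genes with 3 counts or fewer in a group and at least 100 in the other, and 5 genes each way for the difference between experiments. The text names part of these, 1 is not reported here, and other list members it names were chosen after their values were seen. Depth was 41542533 to 43890492 counts, and precision is given by the SE.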

Additional observations from a re-analysis of the deposited data

Results flagged for a closer look

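Of the 2735 genes whose genotype difference departed between the rescue experiment and the other 3D experiment by the test of that difference (edgeR's quasi-likelihood test with Benjamini-Hochberg adjustment), 11 are given. Differences come from the joint fit and are not the plain subtraction of the fold changes beside them. For Cxcl5 the rescue effect minus the other was -1.80. The 10 genes below are the 5 called genes each way with the largest difference.

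In 3 of the genes above the other experiment, all secreted into the matrix, the sign turned. For Dcn (decorin) the difference was 7.39 (adjusted p = 3.45e-08), with 2862 and 3123 counts in Cxcl5-/- and 181 and 232 in WT here, against 262, 92 and 179 in Cxcl5-/- and 1833, 1647 and 2121 in WT there. For Lum (lumican) the difference was 6.21, with log2 fold changes of 5.05 here and -1.30 there. For Ptn (pleiotrophin) it was 5.03, and the gene fell by 1.17 there while it rose here. The difference was 4.54 for Il33, which was not called here (log2 fold change 0.91, adjusted p = 0.109) and fell by 3.77 there. For Ssu2 it was 4.49, with 685 and 715 counts in Cxcl5-/- and 4 and 0 in WT here, and a log2 fold change of 3.66 there.

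Below the other experiment were Lbp, a lipopolysaccharide-binding protein, at -7.50 (log2 fold changes -2.01 here and 5.35 there) and Tnr (tenascin R) at -6.23 (-3.17 and 2.92). Tnr had 125 and 107 counts in Cxcl5-/- and 1003 and 961 in WT here, and 617, 514 and 661 against 74, 50 and 60 there. Lgr6 was at -4.87, with -0.18 here (adjusted p = 0.591) and 4.54 there. Islr rose in both and was at -4.82 (4.21 and 8.89), and Zfp600 was at -4.78 (-0.79 and 3.85). Expected background reached 48.8% of a count for Islr, 16.4% for Dcn and 29.6% for Ptn in the rescue libraries. Experiment and WT background differ together between the tables and cannot be told apart.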

How the results depend on the processing

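The count of genes higher in Cxcl5-/- (5053) stayed within 1.5 times under DESeq2's Wald test (4606), its size factors (4375), library totals (5017), no filter (4458) and only the 4 libraries (6175), but was 2571 with an absolute log2 fold change above 1. Genes lower (6995) numbered 8123 with DESeq2, 10104 with only the 4 libraries, 4647 with at least 10 counts in every library and 3743 with background under 10%, where fewer genes were tested. With the replicate block, for which the shared replicate numbers are no evidence of pairing (correlation of same-numbered libraries 0.0003), 5023 were higher and 5780 lower. Leaving out 1 library gave 3668 to 5270 higher and 3760 to 8350 lower. Lower calls were under 6995 by more than 1.5 times without Cxcl5-/- library 1 (3868) or 2 (3760) and without WT library 1 (4163) or 2 (4144). The lone library left in a group was then assumed to vary like the others.

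For the difference between experiments, genes below (1408) were 741 with no filter and 924 with only the 10 libraries of WT and Cxcl5-/-, and leaving out 1 library gave 562 to 1614 below and 1051 to 2064 above, against 1327 above. With the replicate block 1312 were above and 1368 below.

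Of the values of named genes under the alternatives, 3336 kept direction and side of the threshold, 63 were no longer called and 24 became called. With 1 library left out, 3845 kept both, 132 were no longer called and 13 became called. One turned: the log2 fold change of Ttn, at -0.64 (adjusted p = 0.0347), was 3.43 with background subtracted, where background was up to 95.8% of a Ttn count. The log2 fold change of Cxcl5 stayed called and between -0.98 and -0.72, Hif1a between -1.38 and -1.12 and Myc between -1.37 and -1.10. Depth limits genes near the background level of WT.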

Other observations

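Clustered protocadherins, neural adhesion proteins, were higher for 27 of 48 tested members and lower for 3. They summed to 629 and 677 CPM in Cxcl5-/- and 109 and 121 CPM in WT. Pcdhgc3 had 175 and 192 CPM in Cxcl5-/- and 34.7 and 32.1 CPM in WT (log2 fold change 2.46, SE 0.12, with an adjusted p of 1.26e-07, edgeR's quasi-likelihood test with Benjamini-Hochberg adjustment), and in the other 3D experiment it rose by 1.21. Exons shared within a cluster can split reads among its members, and only 2 members had background under 10%. None was called lower without Cxcl5-/- library 1 or either WT library, with the replicate block, without a filter on low counts or with background subtracted, and 1 was without Cxcl5-/- library 2.

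Among 20 tested genes of iron handling and ferroptosis 4 were higher (20.0%) and 8 lower (40.0%), beside 17.6% and 24.3% of all genes tested. With background under 10%, 5 of 18 were higher and 8 lower, beside 31.6% and 32.1% of all such genes. The median over the 20 was -0.09, beside -0.30 over all genes tested. Without 1 library the higher calls were 1 (Cxcl5-/- library 1) or 2 (Cxcl5-/- library 2 and each WT library), and 3 to 5 without a library of the rescue lines, and the lower calls 5 without WT library 2. Antioxidant enzymes were lower for 13 of 39 and higher for 2, with a median of -0.31 beside -0.30 over all genes tested, or -0.28 beside -0.01 with background under 10%. Lower calls were 20 without Hif1a OE library 2, 22 with DESeq2 and 25 with only the 4 libraries, and 1 was higher without either Cxcl5-/- library. Slc40a1 (ferroportin), the iron exporter, had 132 and 124 CPM in Cxcl5-/- and 14.8 and 18.7 CPM in WT, a log2 fold change of 2.94. Hmox1 (heme oxygenase) was lower, at a log2 fold change of -2.24, and Slc7a11, the cystine transporter, fell by 1.79. Ligands of immune checkpoints and adenosine enzymes were higher for 6 of 16 and lower for 7 (4 without Cxcl5-/- library 2). With background under 10%, 5 of 10 in this list were higher and 4 lower, beside 31.6% and 32.1% of all such genes. Within the list, Cd274 (PD-L1) rose from 6.11 and 7.20 CPM to 18.3 and 20.3 CPM. Pvr fell from 223 and 222 CPM to 42.9 and 37.4 CPM. Nt5e (CD73), which makes adenosine, fell by 1.84. BCL2 family genes and p53 targets were higher for 9 of 27 and lower for 10, with a median of -0.28 beside -0.30 over all genes tested. With background under 10% the median was -0.15 beside -0.01, with 9 higher and 10 lower of 25, beside 31.6% higher and 32.1% lower of all such genes. There were 4 lower without Cxcl5-/- library 1 and 6 without Cxcl5-/- library 2 or WT library 1. Bax and Bbc3 (PUMA) were lower (log2 fold changes -1.14 and -0.86), while Fas rose by 2.22 and the BH3-only genes Bmf and Bcl2l11 (BIM) by 1.67 and 1.66.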
